A study of Mus musculus with 3 samples.

Results

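Hematopoietic progenitor surface antigens are the cell-surface proteins by which blood stem and progenitor cells are recognised and sorted. Here 8 such genes were taken by their names on the array: Ptprc, Spn, Cd48, Slamf1, Ly6a, Procr, Cd24a and Cd47. They are 8 of the 36095 gene names on the array and are measured by 11 of its 55681 non-control probes, with 3 genes (Spn, Cd48 and Cd47) on 2 probes each. The probes were matched by gene name, and the list of genes was drawn up with earlier results of these data known. The cells came from mouse yolk sac and were sorted for VE-cadherin, an endothelial adhesion protein, together with CD45, the protein that Ptprc encodes. The Tie-2-Etv2 group had 2 samples, and their embryos held an Etv2 transgene that a Tie-2 Cre transgene switches on. Etv2 is a transcription factor of the ETS family that early blood and endothelial development requires. The Tie-2 promoter that drives the Cre is active in endothelial cells and in blood cells descended from them. The Control group had 1 sample, at E10.5; the labels give no day for the Tie-2-Etv2 samples and no further detail of the Control genotype. All 3 samples were of mixed strain (B6/CBA and others) and received no treatment after sorting. The labels do not say how many embryos entered a sample or whether the replicates derive from different litters. The p-values therefore reflect just the scatter of these samples, which could be technical.

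Blood cells of the embryo arise from specialised endothelium, and the newly formed cells gain surface antigens in steps: CD41 and CD43 (Spn) appear early, and CD45 (Ptprc) marks cells further along the blood lineage. In the adult, stem cells are sorted as positive for CD150 (Slamf1), Sca-1 (Ly6a) and EPCR (Procr) and negative for CD48, a code in which CD150 and CD48 belong to the same SLAM receptor family. CD47 is broadly expressed and restrains phagocytosis through its receptor on macrophages, and CD24 (Cd24a) is a small glycosylated protein of early blood cells.

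RNA from each sample was read on a 1-colour array of its own, so 3 intensities describe each probe. Of all probes, 24218, 27014 and 25457 were well above background on Tie-2-Etv2 replicate 1, Tie-2-Etv2 replicate 2 and the Control array. The replicate 1 array was dimmer, with a 75th percentile of detected probes of 1199 intensity units, against 2092 for replicate 2 and 2073 for the Control. Levels below are therefore log2 signal relative to that percentile of the same array, and a difference is a Tie-2-Etv2 level minus the Control level. The number of arrays limits the precision: with 1 Control sample an exact permutation test cannot give a p below 0.333, and limma's fit of 26217 probes had 1 residual degree of freedom, supplied by the Tie-2-Etv2 pair. As a check of the labels, Etv2 lay 4.42 and 3.22 above the Control on replicates 1 and 2 (adjusted p of 0.236 in limma's test, so it did not pass). Cdh5, which encodes VE-cadherin, was well above background on all 3 arrays. Although every sample was sorted for that protein, Cdh5 lay 4.46 and 2.60 above the Control (adjusted p of 0.328 in limma's test, not passing). The Cdh5 values therefore do not show that the sorts were alike. Cell type markers also differed between the groups: 10 of 10 macrophage markers, 9 of them well above background on replicate 1, were below the Control by 2-fold or more on both Tie-2-Etv2 arrays, with summed signals of 4.88 and 16.7 in the Tie-2-Etv2 arrays against 72.9 in the Control array (in units of that percentile). Of 10 endothelial markers 7 were at least 2-fold higher on both Tie-2-Etv2 arrays, with sums of 49.7 and 24.8 in Tie-2-Etv2 against 10.4 in Control. Those sums mostly follow the brightest marker, Egfl7, at levels of 5.39 and 4.42 in Tie-2-Etv2 against 3.06 in Control. Over the 10 markers the median log2 difference was 2.19, and 0 were at least 2-fold lower. Among all tested genes 3.92% were at least 2-fold higher on both arrays and 6.64% at least 2-fold lower. Erythroid sums were 8.36 and 12.1 in Tie-2-Etv2 against 43.6 in Control, and visceral endoderm sums 6.78 and 17.7 in Tie-2-Etv2 against 39 in Control. Granulocyte and mast cell markers summed to 51.9 and 53.4 in Tie-2-Etv2 and 20 in Control, and mesenchyme markers to 0.206 and 0.146 in Tie-2-Etv2 and 1.47 in Control. The granulocyte and mast cell sums mostly follow Mpo, at levels of 5.22 and 5.46 in Tie-2-Etv2 against 4.16 in Control. Of the 9 tested markers of that list 4 were at least 2-fold higher on both arrays and 0 at least 2-fold lower. Lymphoid sums were 1.23 and 1.8 in Tie-2-Etv2 against 3.28 in Control, and megakaryocyte sums 11.2 and 7.52 in Tie-2-Etv2 against 7.89 in Control. Of these markers Ms4a2, Cd3g, Rag1, Rag2 and Pdgfra were not well above background on any array. The part of these shifts in the values below was not tested, and in sorted bulk RNA fewer cells of a type and less RNA per cell cannot be told apart.

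The probes are 60-base DNA strands of known sequence, which shows which stretch of each message was measured. Of the 11 probes, 10 align to mm9 as a single block of 60 bases and 1, for Cd47, spans 4116 bases and so crosses a splice junction. Shown here are the probe of Ptprc, the gene of the sorted antigen, with its final stop triplet in capitals, and the more upstream of the pair of probes for Cd48 and for Cd47, each starting at its given base of the transcript. Read in its first frame, the Ptprc probe is open up to that triplet, and it lies at chr1:139961083-139961142 (mm9, minus strand), from base 3959 of the transcript. The Cd48 probe lies at chr1:173629721-173629780 (plus strand, base 621) and the Cd47 probe at chr16:49896476-49896535 (plus strand, base 888).
Ptprc: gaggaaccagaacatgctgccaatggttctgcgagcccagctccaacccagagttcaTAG
Cd48: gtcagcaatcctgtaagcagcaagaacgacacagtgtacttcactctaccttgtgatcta
Cd47: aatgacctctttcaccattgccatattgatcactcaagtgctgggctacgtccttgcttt

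Relative to the Control array, 4 of the 6 tested antigen genes (Spn, Cd47, Cd48 and Procr) had higher levels in both Tie-2-Etv2 arrays, 1 (Ptprc) was lower in both, and 1 (Cd24a) lay on opposite sides of the Control. Among all 19583 tested genes 42.5% were higher in both arrays, 30.9% lower in both and 26.6% on opposite sides. Past 2-fold upward on both arrays was 1 of the 6, Spn, beside 3.92% of all tested genes, and 0 were past 2-fold downward, beside 6.64%. Judged on replicate 1 alone, without replicate 2, the first count was 4, beside 9.06% of all tested genes. Probes entered the test if they were well above background in the Control or in the whole Tie-2-Etv2 pair; Ly6a and Slamf1 met neither condition and were not tested. That requirement can admit a gene through the group in which it is bright, but all 6 tested genes were well above background on all 3 arrays. In limma's test 0 of the 6 passed an adjusted p of 0.05 (adjusted p 0.331 to 0.932), beside 0% of all genes, for which the smallest adjusted p was 0.199. At an unadjusted p under 0.05 there were 2 of the 6, Spn and Cd47, both higher, beside 4.41% of all genes higher and 6.36% lower.

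**Figure D1:**
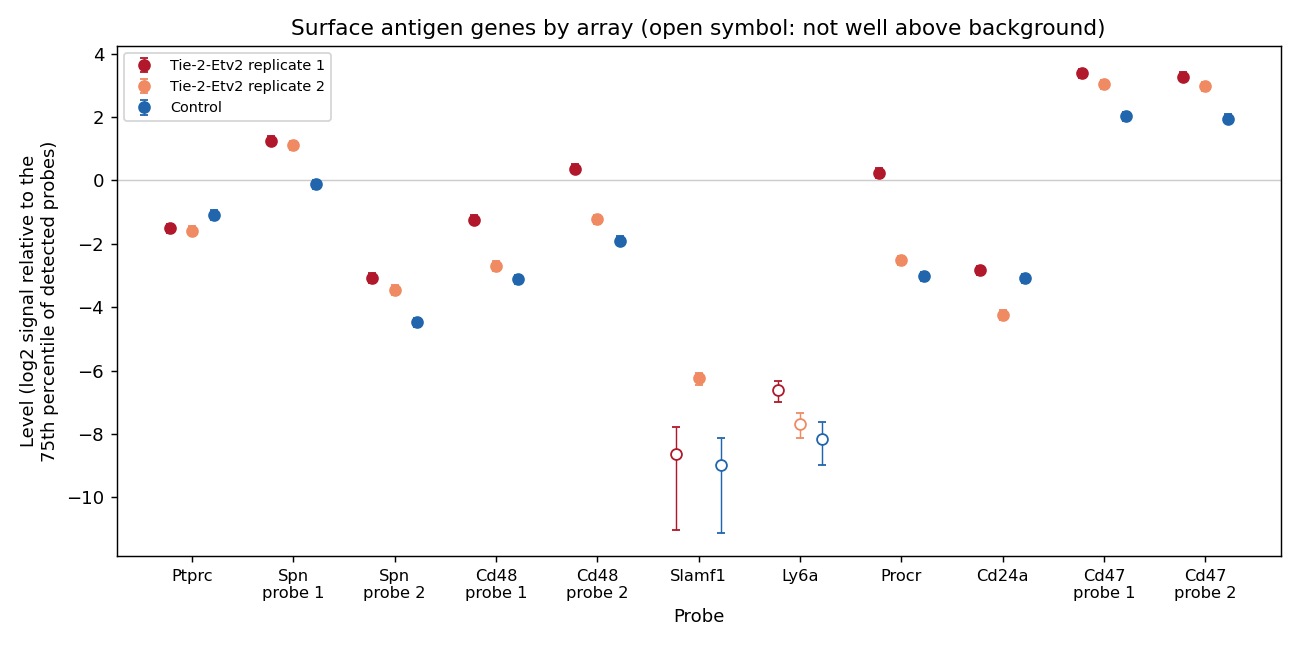
Level of each probe (vertical axis, log2 signal relative to the 75th percentile of detected probes on the same array) on Tie-2-Etv2 replicate 1, Tie-2-Etv2 replicate 2 and the Control array; bars are the scanner software's error for the spot, and open symbols are not well above background. Both probes of Spn and of Cd47 had both Tie-2-Etv2 values above the Control, Procr and Cd48 had replicate 1 far above the other arrays, and Slamf1 was detected on replicate 2 alone.

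Ptprc encodes CD45, the receptor-type tyrosine phosphatase of nucleated blood cells, which removes an inhibitory phosphate from Src family kinases. Its probe read 421 and 698 intensity units in Tie-2-Etv2 replicates 1 and 2, against 978 in the Control. After scaling the levels were -1.51 and -1.58 in the Tie-2-Etv2 arrays, against -1.08 in the Control array. Both Tie-2-Etv2 values lay below the Control and close to each other: the means were -1.55 ± 0.05 (SD, n = 2) and -1.08 (n = 1), a difference of -0.46 ± 0.32 (SE), with a 95% interval of -1.36 to 0.43 (limma, adjusted p = 0.775). The message of the antigen used for the sort was thus 1.34-fold lower on replicate 1 and 1.41-fold lower on replicate 2, a difference that did not pass.

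Spn encodes CD43 (leukosialin), a long mucin-like glycoprotein that appears on embryonic blood progenitors before CD45. Its brighter probe, at chr7:134277313-134277372 (mm9, minus strand), read 2871 and 4503 intensity units in the Tie-2-Etv2 arrays, against 1905 in the Control array. These are levels of 1.26 and 1.11 in the Tie-2-Etv2 arrays, against -0.12 in the Control array. The Tie-2-Etv2 levels averaged 1.18 ± 0.11 (SD, n = 2). Spn was 2.61-fold higher on replicate 1 and 2.34-fold higher on replicate 2, a mean log2 difference of 1.30 ± 0.33 (SE) with a 95% interval of 0.39 to 2.22 (limma, unadjusted p = 0.0167, adjusted p = 0.331). The second, dimmer Spn probe, at chr7:134276998-134277057, gave log2 differences of 1.41 and 1.03. Both Tie-2-Etv2 values lay above the Control on each probe, as did those of 42.5% of all tested genes. Spn had the smallest adjusted p of the 6 tested genes without passing.

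Cd47 encodes the integrin-associated protein whose binding to SIRPα on phagocytes inhibits engulfment. Its junction-spanning probe, between chr16:49906910-49911025 (mm9, plus strand), had 12444 and 17158 intensity units in the Tie-2-Etv2 arrays, against 8513 in the Control array. In levels these were 3.38 and 3.04 in Tie-2-Etv2, against 2.04 in Control, and the Tie-2-Etv2 mean was 3.21 ± 0.24 (SD, n = 2). The gene was 2.53-fold higher on replicate 1 and 1.997-fold higher on replicate 2, just under the 2-fold line, with a mean log2 difference of 1.17 ± 0.35 (SE) and a 95% interval of 0.18 to 2.15 (limma, unadjusted p = 0.0302, adjusted p = 0.393). The printed Cd47 probe gave log2 differences of 1.32 and 1.02, so this probe lay just over the line in both arrays. The probes lie at separate places in the message and gave the same mean difference, 1.17.

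Cd48 encodes a GPI-anchored receptor of the SLAM family that binds CD244. Its brighter probe, at chr1:173635201-173635260 (mm9, plus strand), had levels of 0.38 and -1.22 in the Tie-2-Etv2 arrays, against -1.90 in the Control array. Both Tie-2-Etv2 values lay above the Control, but replicate 1 stood well apart from replicate 2 (4.85-fold and 1.60-fold higher than Control), and the mean was -0.42 ± 1.13 (SD, n = 2). The mean log2 difference of 1.48 ± 0.77 (SE) had a 95% interval of -0.67 to 3.63 (limma, adjusted p = 0.649). The printed Cd48 probe showed the same order of the arrays, with log2 differences of 1.89 and 0.42.

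Procr encodes EPCR, the receptor for protein C that is carried by endothelium and by blood stem cells. Its probe, at chr2:155580945-155581004 (mm9, plus strand), read 1421 and 365 intensity units in the Tie-2-Etv2 arrays, against 255 in the Control array. The levels were 0.25 and -2.52 in Tie-2-Etv2, against -3.02 in Control. Replicate 1 alone was high: Procr was 9.62-fold above the Control on replicate 1 and 1.42-fold on replicate 2, so the mean log2 difference of 1.88 was the highest of the 6 genes and its standard error of 1.25 was as well. The 95% interval was -1.61 to 5.38, and limma's adjusted p was 0.757. With normexp background correction, where 1 common variance was fitted to all probes, the log2 difference was 1.69 and the adjusted p 0.0107. Over the alternatives that gave a p, the adjusted p was 0.0107 to 0.784. That common variance takes no account of the gap between the Procr replicates, which was 2.77 on the log2 scale. A gap of that size or more was found in 0.996% of all tested genes, and the median gap over all genes was 0.31. The endothelial marker sums given above, 49.7 and 24.8 in Tie-2-Etv2 against 10.4 in Control, mostly follow Egfl7. They had the same order of arrays, and their part in the Procr values was not tested.

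Cd24a encodes CD24, the heat-stable antigen, a short GPI-anchored protein of early erythroid and lymphoid cells. Its probe, at chr10:43303706-43303765 (mm9, plus strand), had levels of -2.83 and -4.24 in the Tie-2-Etv2 arrays, against -3.09 in the Control array. The Control lay between the Tie-2-Etv2 values, 1.20-fold below replicate 1 and 2.22-fold above replicate 2. The mean log2 difference of -0.45 ± 0.69 (SE) had a 95% interval of -2.38 to 1.49 (limma, adjusted p = 0.932), and no direction can be given.

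Slamf1 encodes CD150, a self-binding SLAM receptor, and its probe lies at chr1:173730343-173730402 (mm9, plus strand). It was well above background on 1 of the 2 Tie-2-Etv2 arrays, replicate 2, with 27.5 intensity units; it read 3.04 on replicate 1 and 4.14 in the Control, neither well above background. Set against the lowest detected level of the Control array, replicate 2 was at least 1.97-fold higher than the Control. The mean of both Tie-2-Etv2 arrays lay below that limit, so no fold is given for the group. On the replicate 2 array, 37 of the 86 probes around the Slamf1 spot were also well above background, with a median of 7.86 intensity units.

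Ly6a encodes Sca-1, a small GPI-anchored protein of the Ly6 family. Its probe, at chr15:74825553-74825612 (mm9, minus strand), read 12.1 and 10.2 intensity units in the Tie-2-Etv2 arrays, against 7.33 in the Control array, and was not well above background on any of them. Sca-1 message was therefore not detectable in either group at this signal, and no fold is given. For spots not well above background the scanner's own error was 22.8% to 81% of the signal, against 10% to 10.4% for the 27 spots of the tested probes.

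The antigen genes differed in how closely the Tie-2-Etv2 arrays matched. For Ptprc, Spn and Cd47 the gap between replicates was 0.07, 0.15 and 0.34 on the log2 scale, and 86.6%, 73% and 46.8% of all tested genes had a gap at least as large. For Cd24a and Cd48 it was 1.41 and 1.60, matched or exceeded by 5.63% and 4.27% of genes. The plot of both replicates' differences shows Spn and Cd47 near the diagonal and Procr and Cd48 pulled towards replicate 1.

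**Figure D2:**
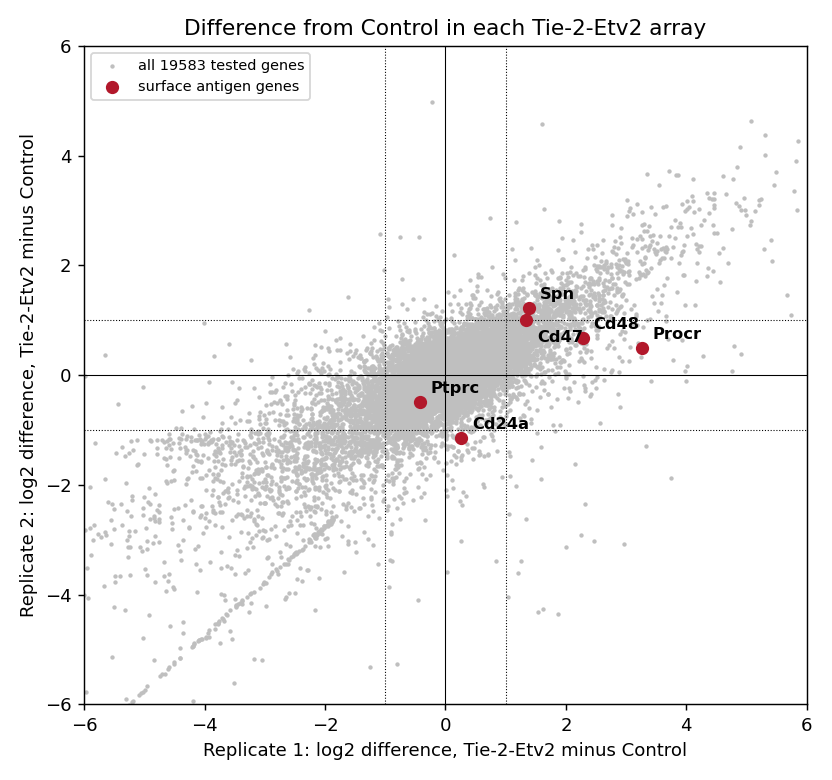
Log2 difference from the Control for Tie-2-Etv2 replicate 1 (horizontal axis) and replicate 2 (vertical axis), with the 19583 tested genes in grey and the 6 tested antigen genes in red; dotted lines mark 2-fold, and 42 genes lie outside the axes. Spn is past 2-fold on both axes, Cd47 at 1.34 and 0.998, and Procr at 3.27 and 0.50; both axes use the same Control array, so some likeness between them is built in.

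By the Euclidean distance of their levels on the 3 arrays, each centred on its mean, the genes nearest to Ptprc among 17204 genes detected on all arrays were Slc6a6, Fbxo4 and Ptov1, at distances of 0.0043, 0.0077 and 0.011 on the log2 scale. Slc6a6 had differences of -0.42 and -0.50, as Ptprc did. Of the 3 probes nearest to Procr only 1 has a gene symbol, Nos3, which encodes endothelial nitric oxide synthase, at a distance of 0.278 with differences of 2.87 and 0.33. With 3 arrays many genes lie near any pattern, so these are descriptions only.

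Cd48 and Slamf1 lie in the SLAM cluster of chromosome 1, their probes 95.1 kb apart in mm9, with 1 other protein-coding gene between them in RefSeq. In RefSeq gene order, Cd244 (named Cd244a there), Ly9 and Cd48 on one side were above the Control on both replicates. The log2 differences were 1.41 and 0.86 for Cd244, the receptor for CD48, and 0.86 and 0.50 for Ly9. The Control level of Ly9, -7.09, was near the lowest detected level of that array, -7.23. Cd84 on the other side was lower, at -6.30 and -5.55 in the Tie-2-Etv2 arrays against -3.86 in the Control array. Slamf6, next to it, had differences of -0.61 and -0.50 and was not well above background on replicate 1, and Slamf7 was not well above background on any array. None of these passed limma's test (adjusted p 0.293 for Cd84, 0.474 for Cd244, 0.652 for Ly9 and 0.703 for Slamf6).

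**Figure D3:**
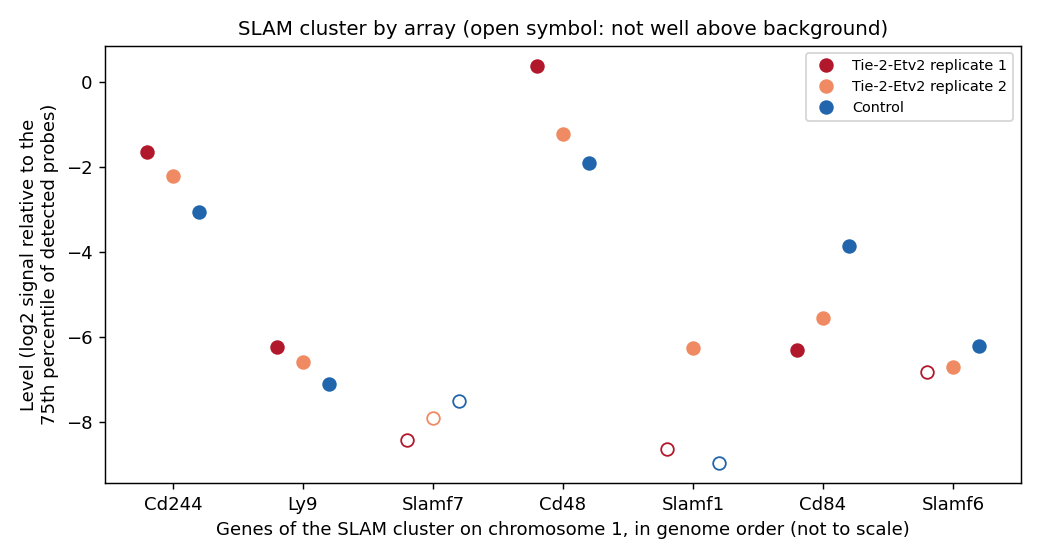
Levels (vertical axis, log2 signal relative to the 75th percentile of detected probes) of the SLAM cluster genes in genome order on Tie-2-Etv2 replicate 1, Tie-2-Etv2 replicate 2 and the Control array; open symbols are not well above background. Cd244, Ly9 and Cd48 had both Tie-2-Etv2 values above the Control, and Cd84 and Slamf6 had both below it.

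Of 14 genes of the SLAM family and its adaptors 8 were tested, but 4 of these (Slamf6, Slamf8, Slamf9 and Cd2) entered only through the Control, where they were well above background. Slamf6 and Cd2 had Control levels of -6.22 and -6.66, near the lowest detected level of that array, -7.23. The 4 detected on all arrays were Cd48, Cd244, Ly9 and Cd84, and their differences had a median of 0.91, beside 0.10 over the 17205 genes detected on all arrays. Past 2-fold on both arrays was 1 of these 4, Cd84, 4.20-fold lower, beside 2.92% of such genes higher and 3.44% lower. Of the genes that entered through the Control, Slamf8 was at least 3.14-fold lower and Cd2 at least 1.44-fold lower in the mean of both Tie-2-Etv2 arrays. Such bounds set the Control level against, on each dim array, the lowest detected level or the probe's own value if higher. Slamf9 was dim on replicate 1 only, where its level of -6.75 lay above the lowest detected level, -6.83. Its 12.7-fold lower value there is thus that of an undetected spot and not a lower limit. On replicate 2 Slamf9 had a log2 difference of -2.11. With those 4 genes included the median of the list turned to -1.30, so its direction depends on the filter. Of the 8, 0 passed limma's test. Among the 4 detected on all arrays 1 was higher (Cd244) and 1 lower (Cd84) at an unadjusted p under 0.05. Of all tested genes 4.41% were higher and 6.36% lower by that measure.

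Of 18 Ly6 and other GPI-anchored surface genes 10 were tested and 8 detected on all arrays, with a median of -0.03 over the 8. Of the 8, 0 were past 2-fold on both arrays, 0 passed limma's test and 0 had an unadjusted p under 0.05. By that last measure 4.41% of all tested genes were higher and 6.36% lower. Among all genes detected on all arrays 2.92% were past 2-fold upward and 3.44% downward. Ly6k entered through the Control alone and was at least 1.51-fold lower in the mean of both Tie-2-Etv2 arrays. It was not well above background on either Tie-2-Etv2 array. Without replicate 2 the count of the 10 past 2-fold was 4, against 1 with both replicates. Over all 19583 tested genes it was 3979, against 2068. Thy1, an antigen of lymphocytes and stem cells named after its values were seen, was well above background in both Tie-2-Etv2 arrays only, at -4.20 and -6.60, and at least 3.56-fold higher than the Control in the mean. The bound was 8.17-fold on replicate 1 and 1.55-fold on replicate 2.

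The genes around CD45 in its signalling had mixed values. Of 14 listed regulators and substrates 13 were tested, 2 past 2-fold upward on both arrays and 4 past 2-fold downward, and the median was -0.38. The 13 were all detected on all arrays. Among all such genes 2.92% were past 2-fold upward and 3.44% downward, with a median of 0.10. Fgr, a Src family kinase, was 12.7-fold and 8.42-fold higher on replicates 1 and 2. Lgals1 and Lgals3, which encode galectins that bind CD45 sugars, were lower. Lgals1 was 16.7-fold and 5.84-fold lower on replicates 1 and 2, and Lgals3 30.8-fold and 4.95-fold. Also past 2-fold were Ptprcap, whose product associates with CD45 (5.54-fold and 2.84-fold higher), and Ptprj, another receptor phosphatase (11.8-fold and 3.06-fold lower). Ptprcap and Ptprc thus lay on opposite sides of the Control, a contrast that was not itself tested. In limma's test 0 of the 13 passed, the smallest adjusted p being 0.213, for Fgr. At an unadjusted p under 0.05 there were 2 higher and 4 lower, beside 4.41% and 6.36% of all tested genes.

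Of 13 listed receptors, ligands and other partners of CD47 7 were tested and 6 detected on all arrays, with a median of -0.74 over the 6. Of the 6, 0 were past 2-fold upward on both arrays and 2, Sirpa and Lrp1, past 2-fold downward. Among all genes detected on all arrays these shares were 2.92% and 3.44%. In limma's test 0 of the 6 passed, and 2 were lower at an unadjusted p under 0.05, beside 6.36% of all tested genes. Sirpa, the macrophage receptor that CD47 engages, had levels of 0.25 and 0.85 in the Tie-2-Etv2 arrays, against 2.55 in the Control array, 4.92-fold and 3.25-fold lower (adjusted p = 0.276 in limma's test). Lrp1, an engulfment receptor that binds calreticulin, was 37.4-fold and 5.94-fold lower. Rhd, an erythroid Rhesus protein that entered through the Control alone, was at least 3.03-fold lower in the mean of both Tie-2-Etv2 arrays. With Rhd the median of the list was -1.10. The macrophage and erythroid marker sums given above were lower too, and their part here was not tested.

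Of 10 genes of the protein C pathway around EPCR 7 were tested and 6 detected on all arrays, with a median of 0.78 over the 6 (0.15 with Proc, which entered through the Control). Of the 6, 2 were past 2-fold upward on both arrays and 0 past 2-fold downward. Among all genes detected on all arrays these shares were 2.92% and 3.44%. In limma's test 0 of the 6 passed, and 2 were higher at an unadjusted p under 0.05, beside 4.41% of all tested genes. F2r and F2rl3, thrombin receptors of endothelium and platelets, were 3.34-fold and 2.66-fold higher in the mean, and Proc, which encodes protein C itself, was not well above background on replicate 1, which bounds it at 4.99-fold or more below the Control there, and was 2.65-fold lower on replicate 2. Of the 7, 1 was past 2-fold with normexp background correction and 5 without replicate 2, against 3. Over all 19583 tested genes the counts in that order were 800, 3979 and 2068. Thbd, which encodes thrombomodulin, had differences of 0.11 and -0.45. Of 15 partners of CD43 and CD24 12 were tested, and 0 were past 2-fold on both arrays (1 without replicate 1, 2 without replicate 2), with a median of 0.13. Over all 19583 tested genes the count past 2-fold, 2068, was 2530 without replicate 1 and 3979 without replicate 2. Of these 12 partners, 0 passed limma's test and 0 had an unadjusted p under 0.05. By that measure 4.41% of all tested genes were higher and 6.36% lower, so few of 12 would be counted at those shares. L1cam, which encodes an adhesion protein that binds CD24, had differences of 1.16 and 0.73. Msn, which encodes the cytoskeletal linker moesin that binds the tail of CD43, had differences of 0.48 and -0.12 beside the higher Spn.

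Other surface antigens of stem and progenitor cells lay on both sides of the Control. Of 30 listed genes 29 were tested and 26 detected on all arrays. Of the 26, 10 were past 2-fold upward on both arrays and 1, Flt3, past 2-fold downward, with a median of 0.82. Among all genes detected on all arrays 2.92% were past 2-fold upward and 3.44% downward, with a median of 0.10. The other 3 tested genes, Prom1, Il7r and Alcam, entered through the Control alone and were not well above background on either Tie-2-Etv2 array. In the mean of both arrays they were at least 1.19-fold, 1.95-fold and 2.78-fold lower. For Prom1 the lowest detected level of replicate 1 lay above the Control level (log2 bound 0.11), so replicate 1 alone bounds no decrease. Itga2b, which encodes CD41, the earliest of these antigens on embryonic blood cells, had levels of -0.02 and 0.33 in the Tie-2-Etv2 arrays, against -2.14 in the Control array. Esam, an endothelial junction protein also found on stem cells, was 14.7-fold and 4.11-fold higher, and Tek 8.20-fold and 4.05-fold higher. Flt3, a receptor of lymphoid and myeloid progenitors, was 5.60-fold and 4.34-fold lower. In limma's test 0 of the 29 passed, and of the 26 there were 10 higher and 2 lower at an unadjusted p under 0.05. Of all tested genes 4.41% were higher and 6.36% lower by that measure. The list holds endothelial genes such as Esam and Tek, and the endothelial marker sums given above were higher too; their part here was not tested. The count of the 29 past 2-fold, 14, was 8 with normexp background correction and 22 without replicate 2. Over all 19583 tested genes that count, 2068, was 800 and 3979 in the same settings. The 14 include Prom1, Il7r and Alcam, which entered through the Control alone.

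**Figure D4:**
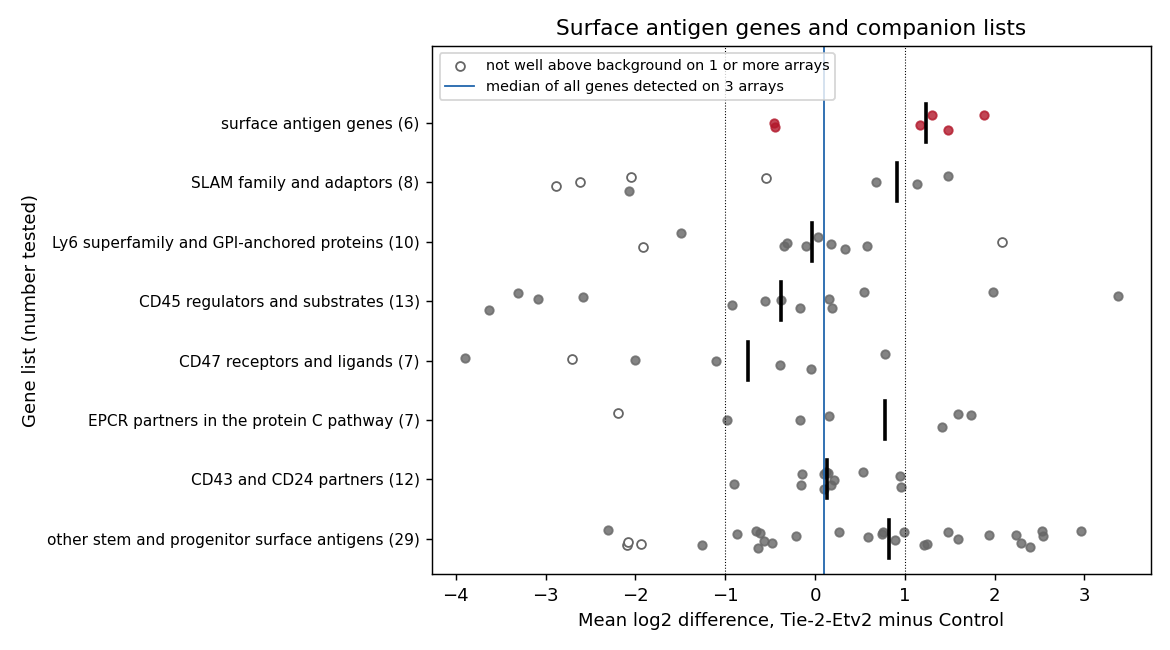
Mean log2 difference of both Tie-2-Etv2 arrays from the Control (horizontal axis) for each tested gene of the antigen genes and of the 7 companion lists (rows); open symbols are genes not well above background on 1 or more arrays, whose values rest on background signal. Thick black lines are list medians over genes detected on all arrays, the blue line is the median of all such genes and dotted lines mark 2-fold. Ptprc and Cd24a are the antigen genes below 0. The open symbols of the SLAM list all lie below 0, but these genes entered only through the Control, a route that favours values below 0.

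Since Etv2 is an ETS factor, the promoters of the members were searched for the ETS core, the letters GGAA on either strand, in the 250 bases before the start of transcription (RefSeq, GRCm38.p6). Of the 8 genes 6 matched the table, in 8 windows; Ly6a and Cd24a had no entry. The core is common: 93.4% of all 32851 windows of that length hold it, with a mean of 2.91. Spn had 7 matches, a number reached or exceeded by 3.82% of windows, and Cd47 had 1 in each of its windows, a number reached by 93.4%. The promoters of these 2 genes, the members with the closest replicates above the Control, are shown with the matches in capitals (GGAA, or TTCC on the other strand); Spn lies at chr7:127137824-127138073 (minus strand) and Cd47 at chr16:49855404-49855653 (plus strand).
Spn: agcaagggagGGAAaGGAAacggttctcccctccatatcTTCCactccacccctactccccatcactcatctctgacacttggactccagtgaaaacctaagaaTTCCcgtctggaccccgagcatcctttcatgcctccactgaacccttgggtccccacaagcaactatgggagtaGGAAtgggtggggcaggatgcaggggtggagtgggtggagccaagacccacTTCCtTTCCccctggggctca
Cd47: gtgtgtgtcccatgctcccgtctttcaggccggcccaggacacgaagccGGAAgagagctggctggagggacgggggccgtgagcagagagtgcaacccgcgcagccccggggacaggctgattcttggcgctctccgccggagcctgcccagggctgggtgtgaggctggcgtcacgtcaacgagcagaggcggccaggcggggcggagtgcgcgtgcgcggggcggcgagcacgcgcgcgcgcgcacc
Procr had 3 matches, Cd48 2 and Slamf1 5, and the windows of Ptprc had 5 and 2. The longer ETS site CCGGAAGT was in none of the 8 windows and in 2.88% of all windows, and the GATA site AGATAA was in 1 Ptprc window and 9.99% of all windows (both strands for each; GGAA lies within the longer site). These matches describe the letters only.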

How the data were processed

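Spot intensity values had been extracted by the authors with Agilent Feature Extraction, version 10.7 per the submitters' processing notes and 10.7.3.1 per the file headers, on array design 028005 with mm9 probe coordinates; these processed signals are already corrected for background. The authors' deposited log2 table has unstated scale and centring. Set against the scanner values, its differences from the Control column differed by a constant (0.756 for Tie-2-Etv2 replicate 1 and -0.0161 for replicate 2) to within 0.01 for 100% of 55668 probes, with the same direction, and every row had a median of 0; the column medians were 0.136, 0 and 0 for Tie-2-Etv2 replicates 1 and 2 and the Control. It served as an alternative.

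Control and outlier spots were left out and log2 signals of replicate spots averaged. Under 50% of probes were well above background (48.5% at most), so the 75th percentile was taken over the 22764 probes detected on all 3 arrays. No spot was saturated (0). Tested probes were well above background on the Control or on both Tie-2-Etv2 arrays. Names came from a RefSeq table of GRCm38.p6 (26582 probes by accession, 2602 by symbol, 492 by synonym; 26005 unmatched), used for names and gene order only. Of several tested probes, the brightest (by the average of the group means) stood for its gene. Testing was two-sided with limma 3.58.1 (lmFit, eBayes; R 4.3.3) and Benjamini-Hochberg adjustment over probes; this takes the spread of the Tie-2-Etv2 pair to hold for the single Control. The fit was tested on simulated data.

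Genes named from companion lists were up to 4 per list that were 2-fold from Control in both arrays, those detected everywhere first, ranked by the smaller difference, or the 2 with the largest mean difference where none was. Ptprcap, Ptprj, Thy1, Thbd, Msn, Cd244, Ly9 and Slamf6 fall outside that rule and were picked with their values in view. Some listed genes that this rule names are not reported here. The members and lists were chosen with earlier results of these data known.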

Additional observations from a re-analysis of the deposited data

How the results depend on the processing

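Differences of the 6 tested antigen genes were recomputed with normexp background correction, percentile scaling over all probes, quantile normalization, no filter on dim probes, probes detected on all arrays only, the authors' table, dim values at the lowest detected level, the other probe and without each Tie-2-Etv2 replicate. The settings for dim probes (no filter, detection on all arrays only, dim values at the lowest detected level) could not change these differences. All 6 genes were well above background on all arrays, so only the p-values could move there. Of 45 recomputed values with a p, these included, 44 kept their direction and their side of the threshold. The exception was Procr with normexp background correction (1.69), now past it, with 1 common variance for all probes. Without replicate 1 or replicate 2 the differences ran from 0.998 to 1.34 for Cd47, 1.23 to 1.38 for Spn, 0.68 to 2.28 for Cd48, -0.50 to -0.42 for Ptprc, 0.50 to 3.27 for Procr and -1.15 to 0.26 for Cd24a, whose sign reversed without replicate 2. Those values have no test.

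Probes passing the test numbered 0, but 700 with normexp (278 higher, 422 lower) and 551 with no filter (170 higher, 381 lower); the cause was not tested. Genes 2-fold apart in both arrays numbered 2068 (768 higher, 1300 lower), with normexp 800 (312 and 488), 1095 under the all-array filter (502 and 593) and, unfiltered, 1317 higher. Leaving out replicate 1 or replicate 2 gave 2530 to 3979 genes 2-fold apart (896 to 1775 higher, 1634 to 2204 lower), 1 to 4 antigen genes 2-fold higher, and, among listed genes, 1 to 4 of the Ly6 list, 3 to 5 of the EPCR list, 1 to 2 of the CD43 and CD24 list and 14 to 22 of the other surface antigens. With normexp the listed genes 2-fold apart were 1 of the SLAM list, 0 of the Ly6 list, 1 of the EPCR list and 8 of the other surface antigens. Under the all-array filter they were 1 of the SLAM and 0 of the Ly6 list. With no filter 2, and with dim values at the lowest detected level 0, of the Ly6 list were 2-fold apart. No paired analysis was possible because the Control group has 1 sample. Without the genes that entered through the Control alone, the SLAM list median was 0.91 in place of -1.30. Ly6a and Slamf1 are limited by signal over background.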
